A study of Mus musculus with 12 samples.

Results

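The Serpina1 and Serpina3 genes studied here were 10 of the 27022 genes in the count table of this liver series: Serpina1a, Serpina1b, Serpina1c, Serpina1d and Serpina1e, and Serpina3k, Serpina3m, Serpina3n, Serpina3g and Serpina3c. They were chosen by name, by matching the Ensembl identifiers of the table to these symbols, and all 10 were found. Liver RNA came from 6 female SJL/J mice collected at 11 weeks of age after a morning fast. The 3 control mice stayed on an AIN-93G diet with 50 ppm iron, and the 3 iron-loaded mice received an AIN-93G diet with 2% carbonyl iron from 6 weeks of age, with 1 cage for each diet, and effects of the cage cannot be told apart from those of the diet. The RNA of each mouse gave 1 library with the KAPA Stranded mRNA-Seq Kit, which samples the whole transcript (Trad-KAPA), and 1 with the Lexogen QuantSeq 3’ kit, which samples the 3’ end (3’-LEXO).

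Serpins are protease inhibitors that offer a protease an exposed stretch, the reactive centre loop, and trap the enzyme when it cuts there. Serpina1 encodes alpha-1 antitrypsin, which hepatocytes secrete in large amounts and which restrains neutrophil elastase, and the Serpina3 genes are relatives of human alpha-1 antichymotrypsin. In the mouse both have been copied many times, and the number of Serpina1 copies is known to differ between inbred strains. Reads of SJL/J were aligned to the C57BL/6J reference, and the copies that SJL/J carries were not examined here. Only reads that mapped to 1 place were counted, so that a read from a stretch shared by several copies was lost.

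All 10 genes lie on chromosome 12 of GRCm38. The Serpina1 copies are on the minus strand, with Serpina1b at chr12:103728156-103830373, where 1 long annotated transcript spans the neighbouring copy, Serpina1d at chr12:103763594-103773592, Serpina1a at chr12:103853589-103863562, Serpina1c at chr12:103894926-103904887 and Serpina1e at chr12:103946931-103958975. Serpina3c, also on the minus strand, is at chr12:104146382-104153870. On the plus strand follow Serpina3g at chr12:104236245-104241939, Serpina3k at chr12:104338486-104346144, Serpina3m at chr12:104338486-104394257 and Serpina3n at chr12:104406729-104414329. The GENCODE M21 annotation lets the exons of Serpina3k and Serpina3m overlap by 60 bases on the same strand, and 429 exonic bases of Serpina1c lie opposite the antisense gene B430119L08Rik, which had at most 4 counts in any library.

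The coding sequences of the 5 Serpina1 copies were compared over 1239 aligned bases. Any pair was identical at 96.3 to 98.5% of them, with Serpina1a and Serpina1c the closest pair, and 86 positions differed in at least 1 copy. Of the 1190 windows of 50 bases, the read length of the study, in the coding sequence of Serpina1b, 319 (26.8%) were identical in all 5 copies. The following stretch, in the coding exons of each copy, is shown because a read from it could not be assigned to any of them:
all 5 Serpina1 copies: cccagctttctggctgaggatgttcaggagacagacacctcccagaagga
In Serpina1b this stretch is at chr12:103732482-103732531, minus strand. The 60 coding bases in which the copies differed most are shown next, in capitals where the copies differ (18 positions):
Serpina1a: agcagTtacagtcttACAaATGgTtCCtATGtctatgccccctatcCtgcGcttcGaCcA
Serpina1b: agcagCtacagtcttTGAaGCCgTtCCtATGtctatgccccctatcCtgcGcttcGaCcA
Serpina1c: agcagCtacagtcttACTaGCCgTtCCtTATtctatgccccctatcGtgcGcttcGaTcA
Serpina1d: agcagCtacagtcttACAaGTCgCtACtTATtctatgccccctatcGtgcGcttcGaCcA
Serpina1e: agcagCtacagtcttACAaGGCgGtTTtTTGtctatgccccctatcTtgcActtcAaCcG
These bases encode part of the reactive centre loop. They lie at chr12:103853757-103853816 in Serpina1a, chr12:103728324-103728383 in Serpina1b, chr12:103895094-103895153 in Serpina1c, chr12:103763762-103763821 in Serpina1d and chr12:103947100-103947159 in Serpina1e, all on the minus strand. They end 168 or 169 bases before the annotated 3’ end of the transcript, within the last 300 bases taken below as the 3’ end. In Serpina1a, 50-base windows that end 86 to 172 bases before the 3’ end also occurred in another gene. Some reads within its stretch could therefore not be assigned to it. Serpina3 members were less alike, with 80.4 to 91.7% identity in the coding sequence over the bases that each pair shares, Serpina3k and Serpina3m being the closest.

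The share of 50-base windows that occurred in no other annotated transcript differed widely between the copies. Over the whole representative transcript it was 20.7% in Serpina1c, 32.6% in Serpina1a, 49.1% in Serpina1d, 64.2% in Serpina1b and 64.4% in Serpina1e. In the last 300 bases it was 84.1% in Serpina1c, 43.4% in Serpina1a, 55.4% in Serpina1d, 62.2% in Serpina1b and 81.7% in Serpina1e. In the last 500 bases the share was 60.3% in Serpina1c, 70.5% in Serpina1b and 83.6% in Serpina1e, and in the last 200 bases Serpina1c and Serpina1e both had 73.5%. Serpina1c was the copy with the lowest share over the whole transcript, and which copy had the highest share near the 3’ end depended on the length taken. Of the windows of Serpina1a, 57.5% were also found in Serpina1c, and 37.4% in the pseudogene Gm8893. Gm8893 itself had 861 to 1169 counts in the Trad-KAPA libraries and 53 to 133 in the 3’-LEXO libraries. For the Serpina3 members the share was 80.9 to 95.7% over the whole transcript, and in the last 300 bases it was 100% in Serpina3k, Serpina3m, Serpina3n and Serpina3c and 95.6% in Serpina3g. Allowing 1 mismatch lowered the share in the last 300 bases to 3.19% in Serpina1a, 21.5% in Serpina1b, 24.7% in Serpina1c, 37.8% in Serpina1d and 51.8% in Serpina1e, whereas the 4 Serpina3 members with 100% kept it.

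**Figure D1:**
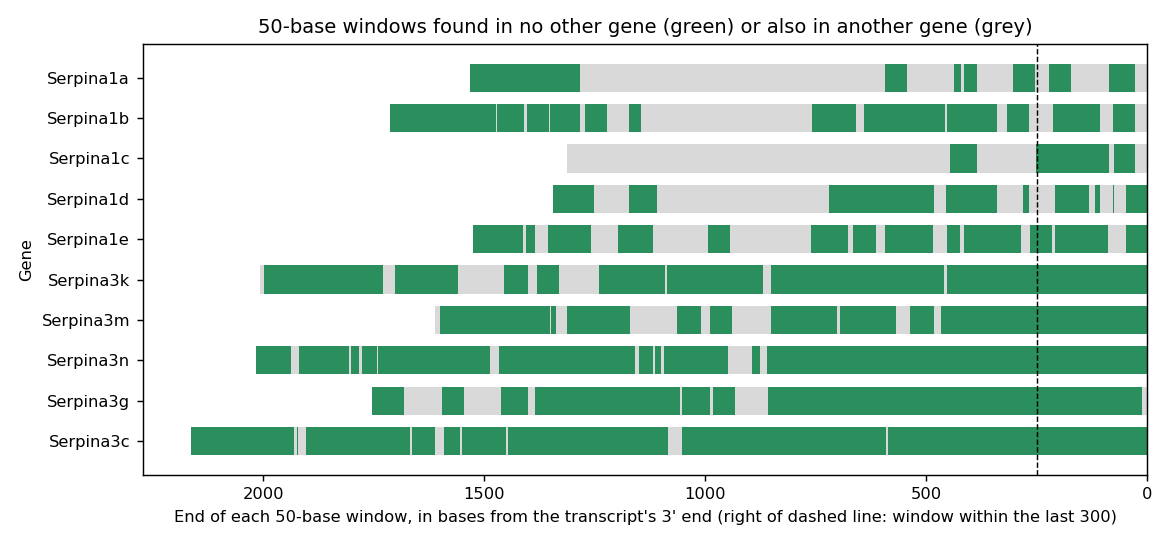
Each bar is the representative transcript of a gene, drawn by the distance of each 50-base window from the 3’ end in bases; green windows occur in no other annotated gene and grey windows occur in at least 1 other. The Serpina1 copies hold long grey stretches, over most of the transcript in Serpina1c (20.7% green), whereas the Serpina3 members are 80.9 to 95.7% green.

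The libraries held 10724672 to 16553616 counts. Libraries of the same mouse in both kits deviated together from their group means, with a correlation across 10326 genes of 0.444 to 0.770 over the 6 mice. Iron-loaded mice 2 and 3 were far closer to each other than other pairs of a group were, their counts giving a chi-square per degree of freedom of 5.98 (Trad-KAPA) and 5.97 (3’-LEXO) against 18.5 to 59.8 in the other pairs, and iron-loaded mouse 1 stood apart from both. The Trad-KAPA library of iron-loaded mouse 2 correlated slightly more with the 3’-LEXO library of mouse 3 (0.592) than with its own (0.522). All 10 hepatocyte markers examined had counts in both kits, with a summed level in Trad-KAPA of 122026 to 162345 CPM, which are counts scaled to a library total of 1000000. In these bulk samples, fewer cells of a type and less RNA per cell cannot be told apart.

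Per length of transcript, Serpina3k and Serpina1b were the most abundant members and Serpina3g and Serpina3c the least. In Trad-KAPA, levels of genes were compared as CPM per kb of transcript. In the control mice Serpina3k came first with 2528 ± 859 CPM per kb (SD, n = 3), followed by Serpina1b with 1398 ± 63.7, Serpina1c with 798 ± 77.0, Serpina1a with 417 ± 10.6 and Serpina3n with 347 ± 30.1. Serpina3m with 220.4 ± 32.4, Serpina1d with 159.8 ± 29.5 and Serpina1e with 94.0 ± 6.99 CPM per kb followed, then Serpina3g with 2.68 ± 1.40 and Serpina3c with 0.311 ± 0.321. Only Serpina3m and Serpina1d overlapped among the neighbours in this order. In the iron-loaded mice Serpina1d had moved from the seventh to the fourth place, with 575 ± 174 CPM per kb, and overlapped its neighbours Serpina1c and Serpina1a.

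The order of the members depended on which length was used. When the Trad-KAPA CPM was divided by the number of unique windows instead of by the transcript length, Serpina1c came first of the 10 in the control mice with 3995 ± 385 CPM per 1000 unique windows (SD, n = 3), ahead of Serpina3k with 3012 ± 1024 (a spread that takes in the Serpina1c mean), Serpina1b with 2240 ± 102.0 and Serpina1a with 1321 ± 33.5. Among the Serpina1 copies, Serpina1d with 338 ± 62.3 and Serpina1e with 151 ± 11.2 stayed last on both scales. By mean CPM over the 6 libraries, Serpina3k ranked 20th of 27022 genes in Trad-KAPA and 13th in 3’-LEXO, and Serpina1b 36th and 44th.

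**Figure D2:**
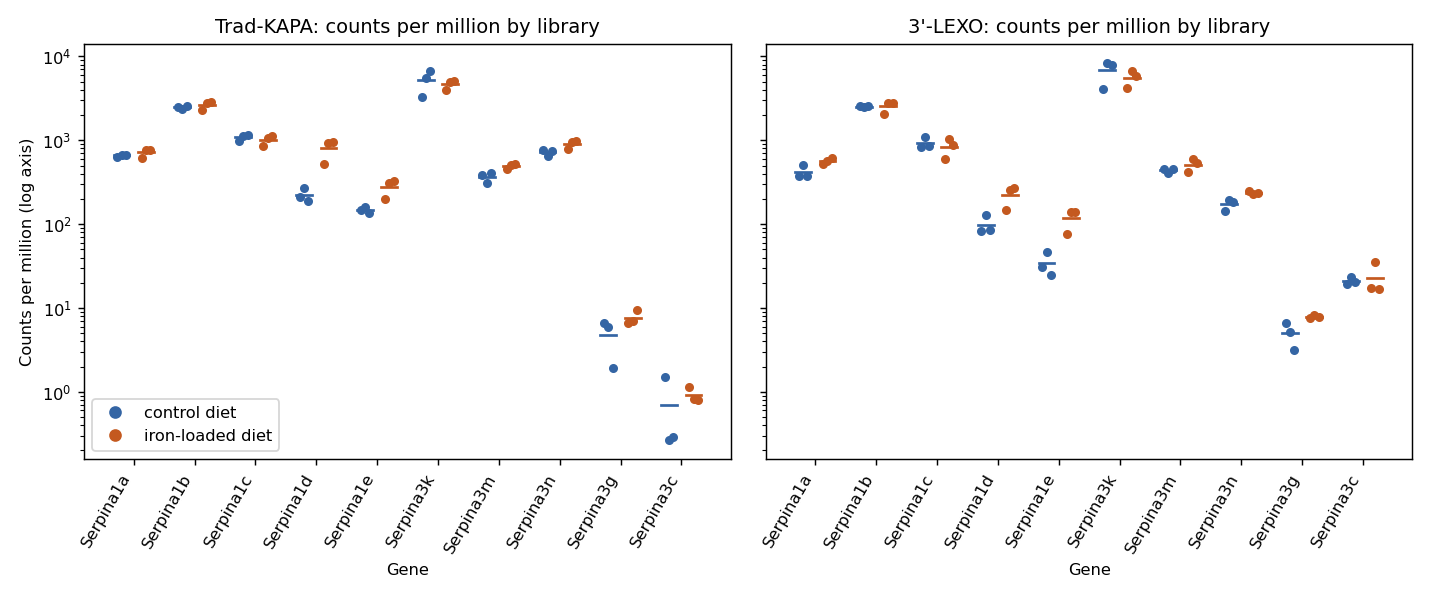
CPM (log axis) of the 10 genes in each Trad-KAPA (left) and 3’-LEXO (right) library, with blue points for the 3 control and orange points for the 3 iron-loaded mice and bars at the group means. Serpina1d, Serpina1e and Serpina3n are the members whose diet groups do not overlap in either kit, and Serpina3c sits more than an order of magnitude higher in 3’-LEXO than in Trad-KAPA. Of all genes tested, 24.7% in Trad-KAPA and 18.5% in 3’-LEXO had every iron-loaded mouse above every control mouse. Both kits used RNA of the same mice.

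With the iron-loaded diet, Serpina1d and Serpina1e were higher in both kits, and the other 3 Serpina1 copies did not pass the test in either. Of the 10 members, 2 were called in Trad-KAPA (edgeR quasi-likelihood test, Benjamini-Hochberg adjusted p below 0.05), both higher, beside 17.1% of the 13151 genes tested (8.77% higher and 8.37% lower). In 3’-LEXO, 2 of 10 were called, again both higher, beside 6.10% of the 13301 genes tested (3.17% higher and 2.92% lower). They were the same 2 genes, and 2.67% of the 12229 genes tested in both kits were called higher in both. The members were proposed with earlier results of these data in view, so that these counts describe them and nothing is read from them. The median log2 fold change of the 10 members was 0.28 in Trad-KAPA and 0.27 in the 3’-LEXO libraries, against 0.02 and 0.01 over all genes tested.

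Serpina1d rose the most in Trad-KAPA. It had 214, 268 and 187 CPM in control mice 1, 2 and 3 and 521, 935 and 949 CPM in iron-loaded mice 1, 2 and 3. In 3’-LEXO it had 82.5, 128 and 85.4 CPM in the control mice and 146, 253 and 270.1 CPM in the iron-loaded mice. Every iron-loaded mouse lay above every control mouse in both kits, and iron-loaded mouse 1 was the lowest of its group in both. The log2 fold change was 1.79 ± 0.26 (SE) in Trad-KAPA (edgeR adjusted p = 0.00579) and 1.14 ± 0.26 in 3’-LEXO (edgeR adjusted p = 0.0355). The 3’-LEXO call was lost without control mouse 1, 2 or 3 (adjusted p = 0.131, 0.0624 and 0.131) and without iron-loaded mouse 2 or 3 (0.0654 and 0.102), whereas in Trad-KAPA the adjusted p stayed at or below 0.0312 without any 1 mouse.

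Serpina1e rose the most in 3’-LEXO. Its level there was 30.5, 46.6 and 24.8 CPM in control mice 1, 2 and 3 and 76.0, 139.6 and 141 CPM in iron-loaded mice 1, 2 and 3. In Trad-KAPA it was 149, 158 and 136 CPM in the control mice and 198, 313 and 325 CPM in the iron-loaded mice. The diet groups did not overlap in either kit, and iron-loaded mouse 1 was again the lowest of its group. The log2 fold change was 0.85 ± 0.20 (SE) in Trad-KAPA (edgeR adjusted p = 0.0251) and 1.77 ± 0.29 in 3’-LEXO (edgeR adjusted p = 0.00928). The Trad-KAPA call was lost when any mouse but iron-loaded mouse 1 was left out (highest adjusted p 0.0871), and the 3’-LEXO call without control mouse 1 or 3 (0.0504 and 0.0559).

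Serpina1b, the most abundant copy by CPM, did not pass the test. It ranged from 2352 to 2577 CPM in the control and from 2322 to 2847 CPM in the iron-loaded mice in Trad-KAPA, and from 2472 to 2578 and from 2086 to 2790 CPM in 3’-LEXO. The groups overlapped in both kits, and the log2 fold changes were 0.03 ± 0.15 and -0.04 ± 0.19 (SE). Serpina1c had log2 fold changes of -0.17 ± 0.17 in Trad-KAPA and -0.19 ± 0.23 in the 3’-LEXO libraries, with overlapping groups in both. For Serpina1a the values were 0.06 ± 0.14 in Trad-KAPA, where the groups overlapped, and 0.38 ± 0.17 in 3’-LEXO, where the control mice had 372 to 513 CPM and the iron-loaded mice 518 to 612 CPM (edgeR adjusted p = 0.208). Of all genes tested, 24.7% in Trad-KAPA and 18.5% in the 3’-LEXO libraries had every iron-loaded mouse above every control mouse.

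The make-up of the Serpina1 counts differed between the diets accordingly. Serpina1d made up 4.88 ± 0.955% (SD, n = 3) of all Serpina1 counts in the control and 14.5 ± 2.52% in the iron-loaded mice in Trad-KAPA, and 2.44 ± 0.492% and 5.10 ± 0.761% in the 3’-LEXO libraries. The share of Serpina1e was 3.24 ± 0.311% in the control and 5.06 ± 0.574% in the iron-loaded mice with Trad-KAPA, and with 3’-LEXO it was 0.841 ± 0.236% and 2.71 ± 0.431%. Serpina1b held 53.8 ± 2.11% in the control and 48.7 ± 2.42% in the iron-loaded mice in Trad-KAPA, and 63.3 ± 4.36% and 59.5 ± 1.26% in the 3’-LEXO libraries. These shares count assigned reads only and are not corrected for the windows each copy lost.

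**Figure D3:**
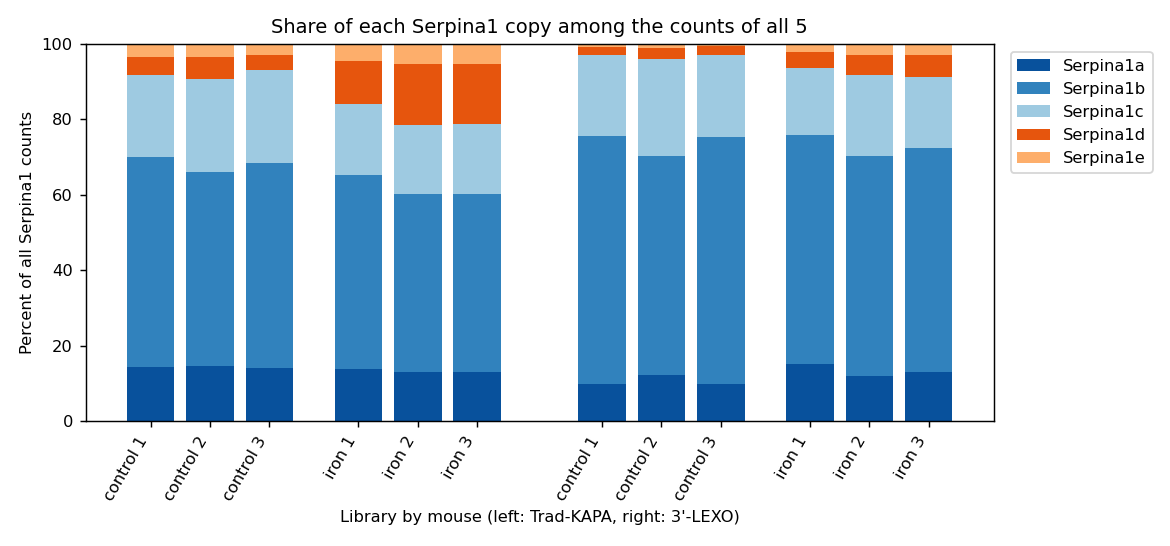
Stacked bars give the percent of all Serpina1 counts assigned to each of the 5 copies in each library, from 0 to 100%, with the Trad-KAPA libraries on the left and the 3’-LEXO libraries on the right. Serpina1d (dark orange) takes 11.6 to 16.0% in the iron-loaded and 3.95 to 5.86% in the control Trad-KAPA libraries.

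The sum of the 5 copies does not depend on how assigned reads were divided among them. It still leaves out reads with more than 1 mapping position, and the copies lose unequal shares of their windows. The sum is therefore not the total of Serpina1 RNA. It ranged from 4435 to 4735 CPM in the control and from 4514 to 6013 CPM in the iron-loaded mice in Trad-KAPA, and from 3847 to 4244 and from 3428 to 4781 CPM in 3’-LEXO. The groups overlapped in both kits. When the sum was fitted as 1 gene, the log2 fold change was 0.19 ± 0.17 (SE, edgeR adjusted p = 0.483) in Trad-KAPA and 0.05 ± 0.20 (edgeR adjusted p = 0.903) in the 3’-LEXO libraries. The sum without iron-loaded mouse 2 or 3 changed sign in 3’-LEXO, to -0.05 and -0.04.

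None of the Serpina3 members passed the test for diet in either kit with all mice (edgeR; DESeq2 also called none). At an unadjusted p below 0.05, edgeR counted Serpina3m in Trad-KAPA and Serpina3n and Serpina3g in 3’-LEXO. Serpina3k, the most abundant, varied strongly among the control mice, with 3267, 5597 and 6735 CPM in Trad-KAPA and 4146, 8390.1 and 7921 CPM in 3’-LEXO for mice 1, 2 and 3. The iron-loaded mice had 4004, 5005 and 5162 CPM in Trad-KAPA and 4165, 6702 and 5909 CPM in 3’-LEXO. They lay within the range of the control mice in both kits, and mouse 1 was the lowest of its group in each of the 4 groups. The log2 fold change was -0.21 ± 0.28 (SE) in Trad-KAPA and -0.34 ± 0.30 in the 3’-LEXO libraries.

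Serpina3n, an acute phase inhibitor of granzyme B and other serine proteases, had 762, 646 and 742 CPM in the control and 782, 951 and 977 CPM in the iron-loaded mice in Trad-KAPA. In 3’-LEXO it had 142, 194 and 185 CPM in the control and 247, 230.0 and 234 CPM in the iron-loaded mice. The diet groups did not overlap in either kit, but the differences of 0.27 ± 0.15 and 0.39 ± 0.16 on the log2 scale did not pass the test (edgeR adjusted p = 0.245 and 0.167). Serpina3m had log2 fold changes of 0.37 ± 0.16 in Trad-KAPA (adjusted p = 0.137), with groups that did not overlap, and 0.17 ± 0.18 in 3’-LEXO (adjusted p = 0.607), with groups that did. Without iron-loaded mouse 1, Serpina3m and Serpina3n also passed in Trad-KAPA (edgeR adjusted p = 0.0464 and 0.0418), so that 4 members were called there, beside 20.8% of all genes tested in that fit.

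Serpina3g, a cytoplasmic inhibitor of cathepsins known from leukocytes, was near the lower end of detection. With 27 to 130 counts per library, its level was 1.95 to 6.64 CPM in the control and 6.57 to 9.34 CPM in the iron-loaded mice in Trad-KAPA, and 3.19 to 6.72 and 7.52 to 8.21 CPM in 3’-LEXO. The diet groups overlapped in Trad-KAPA and did not in 3’-LEXO. The log2 fold changes were 0.60 ± 0.36 and 0.59 ± 0.25 (SE, edgeR adjusted p = 0.282 and 0.186). Serpina3c had 4 to 25 counts per library in Trad-KAPA and 187 to 376 in 3’-LEXO, with log2 fold changes of 0.30 ± 0.62 and 0.08 ± 0.27, and its groups overlapped in both kits. The sum of the 5 Serpina3 members, which Serpina3k dominates with 73.9 to 93.0% of its counts in the libraries, had log2 fold changes of -0.11 ± 0.25 in Trad-KAPA and -0.28 ± 0.29 in the 3’-LEXO libraries (edgeR adjusted p = 0.782 and 0.578).

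**Figure D4:**
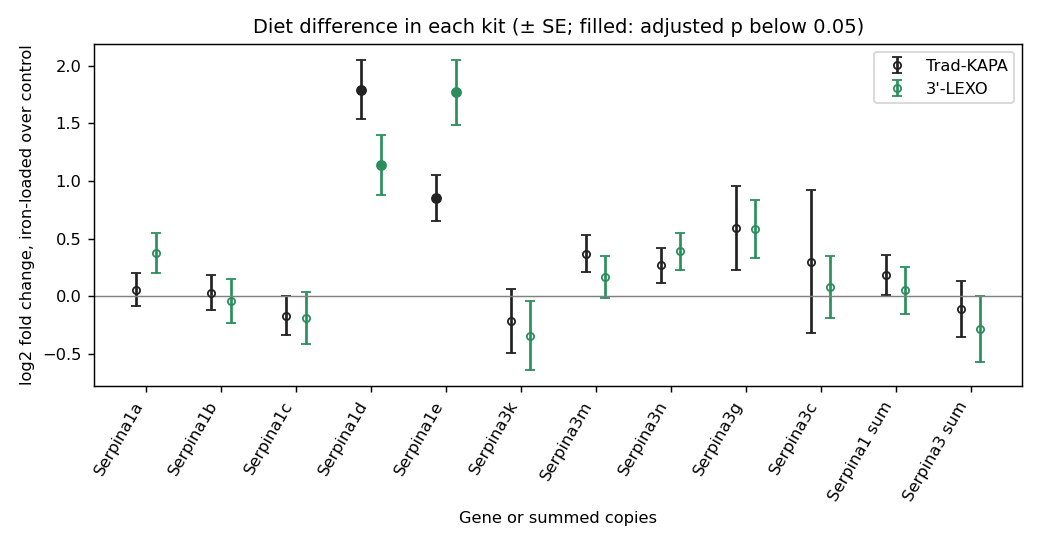
Points give the log2 fold change of the iron-loaded over the control diet with its SE for each gene and for the summed copies, in black for Trad-KAPA and green for 3’-LEXO, and filled points had an edgeR adjusted p below 0.05. The difference of Serpina1d is larger with Trad-KAPA (1.79) and smaller with 3’-LEXO (1.14), and that of Serpina1e is 0.85 and 1.77. The sums lie between -0.28 and 0.19 and did not pass the test.

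The diet differences of Serpina1d and Serpina1e were unequal in the kits, in opposite directions. The interaction of diet and kit was -0.66 ± 0.39 on the log2 scale (SE) for Serpina1d, 3’-LEXO minus Trad-KAPA, and 0.91 ± 0.38 for Serpina1e. With the 4 groups fitted without regard to the mouse, edgeR called 0 of the 10 members, and 0% of the 14384 genes tested, and DESeq2 also called 0. At an unadjusted p below 0.05 both tools counted 1 member, Serpina1e, and edgeR counted 402 genes. Since both libraries of a mouse came from the same RNA, the fit with the mouse as a block is given beside it. In that fit Serpina1e passed, with 0.92 ± 0.14 (edgeR adjusted p = 0.0294), as 1 of 5 genes called in all (0.0348%), and Serpina1d had -0.64 ± 0.11 (adjusted p = 0.0508). The ratio of 3’-LEXO to Trad-KAPA CPM showed this in each mouse: for Serpina1e it was -2.29, -1.77 and -2.46 on the log2 scale in the control and -1.38, -1.17 and -1.20 in the iron-loaded mice. For Serpina1d it was -1.37, -1.07 and -1.13 in the control and -1.83, -1.89 and -1.81 in the iron-loaded mice. In both genes the diets did not overlap in this ratio, as in 11.8% of the 13438 genes tested that had a count in all libraries. The other 8 members overlapped, and the Serpina1 sum did not, with -0.27 to -0.11 in the control and -0.40 to -0.29 in the iron-loaded mice. Serpina1d and Serpina1e share 421 windows, which are 31.3% of the windows of Serpina1d and 27.6% of those of Serpina1e, and 34 of the windows in the last 300 bases of each. This sharing is not particular to the pair. Serpina1d shares 507 windows with Serpina1b (66 in the last 300 bases), 479 with Serpina1c and 478 with Serpina1a. Serpina1e shares 417 with Serpina1c and 400 with Serpina1a. The part of shared reads in the unequal differences was not tested.

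Between the kits, Serpina1a, Serpina1d, Serpina1e and Serpina3n had fewer CPM in 3’-LEXO and Serpina3c had more. These were the 5 of 10 members called for the difference between kits, beside 76.5% of the 14384 genes tested, 38.8% higher and 37.6% lower in 3’-LEXO (edgeR quasi-likelihood test over 12 libraries). With the mouse as a block 8 were called, beside 82.6% of all genes tested in that fit, with Serpina1c lower in 3’-LEXO and Serpina3k and Serpina3m higher in addition. By the design of the kits, CPM grows with transcript length in Trad-KAPA and not in 3’-LEXO. The differences are thus in read share, and do not measure a difference in RNA. Serpina3c, the longest member with 2213 bases, was higher in 3’-LEXO. Serpina3n with 2064 and Serpina1d with 1394 bases were lower. The part of transcript length in these differences was not tested.

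Serpina3c was 4.76 ± 0.31 higher in 3’-LEXO on the log2 scale (SE, edgeR adjusted p = 7.77e-09), with 17.0 to 35.1 CPM against 0.268 to 1.51 CPM, and no library of one kit reached the other. Serpina3n was lower in 3’-LEXO by -1.99 ± 0.11 (SE, edgeR adjusted p = 1.67e-09), with 142 to 247 CPM against 646 to 977 CPM. These were the largest differences in each direction among the members, in genes whose windows in the last 300 bases were all unique. Serpina1e differed by -1.68 ± 0.19 (adjusted p = 2.34e-06) and Serpina1d by -1.51 ± 0.20 (adjusted p = 9.26e-06). Serpina1a differed by -0.49 ± 0.11 (edgeR adjusted p = 0.000842) and was lower in 3’-LEXO in 6 of 6 mice.

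Serpina1b was close to equal in the kits, with a mean log2 ratio of -0.01 ± 0.08 (SD, n = 6 mice) and a range of -0.15 to 0.07. Serpina1c had a mean of -0.27 ± 0.19, and its ratio was below 0 in 6 of 6 mice. The part of unique windows in these ratios was not tested. Where each library’s reads end in these transcripts cannot be read from counts per gene, and the annotated 3’ ends were taken as they are.

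**Figure D5:**
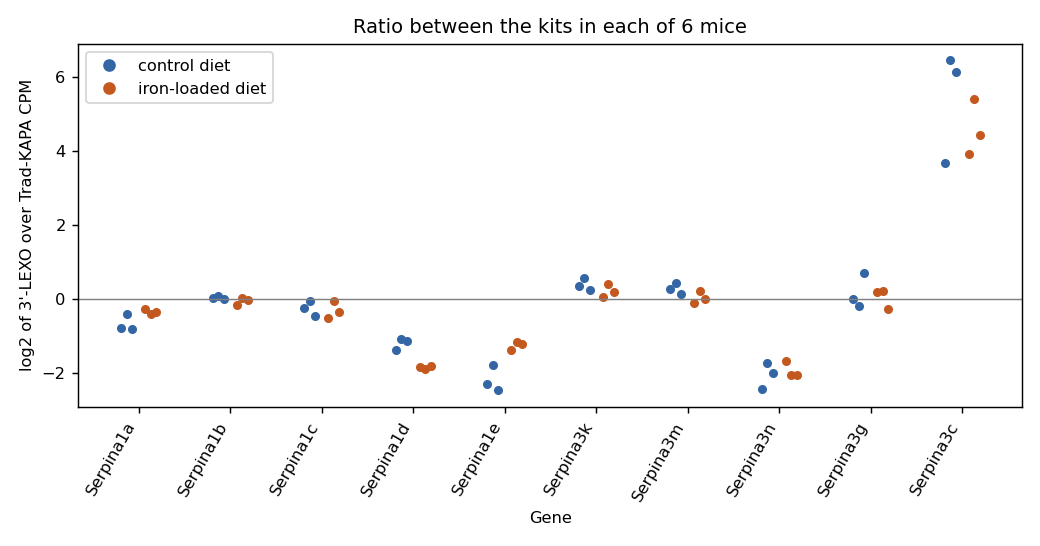
Points give the log2 ratio of 3’-LEXO to Trad-KAPA CPM of each gene in each of the 6 mice, blue for the control and orange for the iron-loaded diet. Serpina3c lies at 3.69 to 6.45, Serpina3n, Serpina1d and Serpina1e lie below -1 in every mouse, and the diets separate in Serpina1d and Serpina1e.

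The start regions of the 5 Serpina1 copies were also compared, since Serpina1d and Serpina1e were called for diet and the other copies were not. RefSeq promoters (GRCm38.p6, 250 bases before to 50 after the start) were matched for 8 of the 10 members. The last 90 bases before the start that align without gaps in all 5 copies are shown, in capitals where the copies differ (10 positions):
Serpina1a: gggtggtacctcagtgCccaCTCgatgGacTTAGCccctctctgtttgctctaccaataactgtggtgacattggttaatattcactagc
Serpina1b: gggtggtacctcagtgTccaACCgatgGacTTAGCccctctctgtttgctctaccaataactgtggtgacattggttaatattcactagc
Serpina1c: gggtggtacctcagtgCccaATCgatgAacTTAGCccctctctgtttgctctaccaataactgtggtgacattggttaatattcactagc
Serpina1d: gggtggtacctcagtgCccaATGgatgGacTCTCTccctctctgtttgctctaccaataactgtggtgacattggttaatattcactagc
Serpina1e: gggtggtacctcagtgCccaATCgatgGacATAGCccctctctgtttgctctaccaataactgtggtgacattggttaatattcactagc
They lie at chr12:103863625-103863714 in Serpina1a, chr12:103738200-103738289 in Serpina1b, chr12:103904962-103905051 in Serpina1c, chr12:103773634-103773723 in Serpina1d and chr12:103956960-103957049 in Serpina1e, on the minus strand. In Serpina1b and Serpina1e this is within an intron of a longer annotated transcript. The letters GTTAAT, the core of sites bound by HNF1, were searched on both strands and were found in the stretch shown. They lie in a part that is identical in all 5 copies, so that the matches count as 1 sequence. Of 32851 promoters, 7.10% held these letters. A match is a description of these letters and not of binding. Being in an identical part, it could not separate Serpina1d and Serpina1e from the other copies.

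The genes whose pattern over the 12 libraries was most like Serpina1e, by the mean absolute difference of log2(CPM + 1) centred on each kit, were Tsc22d2 (0.24), Klf10 (0.25) and Gstm3 (0.25), out of 6711 genes with at least 10 CPM on average in both kits. They were loose matches, since the closest gene to each other member differed by 0.0384 to 0.175. Unlike Serpina1e, they had similar log2 fold changes in Trad-KAPA and 3’-LEXO: 1.13 and 1.21 (Tsc22d2), 0.94 and 0.85 (Klf10), and 1.15 and 1.14 (Gstm3).

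Of the other genes of the clade, 15 of 17 were in the table, and 9 were tested in Trad-KAPA and 7 in the 3’-LEXO libraries. In each kit 1 was called higher and 1 lower with iron, beside the 17.1% and 6.10% of all genes given above. Serpina7, which encodes thyroxine-binding globulin, was called in both, with 9.69 ± 0.517 CPM in the control and 105 ± 101.2 CPM in the iron-loaded mice in Trad-KAPA (SD, n = 3) and log2 fold changes of 3.33 ± 0.59 and 3.14 ± 0.61 (SE, edgeR adjusted p = 0.0108 and 0.0198). Iron-loaded mouse 1, the lowest of its group in Serpina1d, was the highest in Serpina7, with 222 CPM in Trad-KAPA against 45.1 and 47.7 CPM in iron-loaded mice 2 and 3.

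Of 12 target proteases, 10 were in the table. Elane, which encodes neutrophil elastase, was too low to be tested, with at most 0.286 CPM in a library. Among the target proteases, none of the 4 tested in Trad-KAPA and none of the 5 tested in 3’-LEXO was called by edgeR. At an unadjusted p below 0.05 there were 1 (Ctsl) and 2 (Ctsl and Prtn3), and DESeq2 called Ctsl in 3’-LEXO. Of 12 genes of interleukin-6 signalling and liver transcription factors tested, 2 were called in Trad-KAPA and 1 in the 3’-LEXO libraries, all higher, beside 17.1% and 6.10% of all genes called in either direction. Cebpd, a transcription factor of the acute phase response, was called in both, with log2 fold changes of 1.16 ± 0.14 and 0.98 ± 0.19 (edgeR adjusted p = 0.00326 and 0.0184). Of 13 genes for the handling and export of alpha-1 antitrypsin in the endoplasmic reticulum, 1 was called higher and 1 lower in Trad-KAPA and 1 higher in 3’-LEXO, beside 17.1% and 6.10% of all genes called. Edem3, which takes part in the disposal of misfolded glycoproteins, was called in both with 0.57 ± 0.16 and 0.74 ± 0.19 (adjusted p = 0.0448 and 0.0463).

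Some markers of cell types were called for diet too. The summed level of 18 leukocyte markers was 255 to 453 CPM in the control and 489.6 to 540.5 CPM in the iron-loaded mice in Trad-KAPA, and 166 to 250.3 CPM and 314 to 387 CPM in 3’-LEXO, so that the groups did not overlap. The largest parts of the control sums were Clec4f and Cd74 in Trad-KAPA (means of 162 and 98.1 CPM). In 3’-LEXO they were Lyz2 and Clec4f (means of 94 and 62.4 CPM). Of the leukocyte markers tested, 5 of 14 were called higher in Trad-KAPA and 3 of 13 in 3’-LEXO, beside 8.77% and 3.17% of all genes, and none lower. S100a9 (log2 fold changes of 2.48 ± 0.41 and 1.79 ± 0.32), S100a8 (1.51 ± 0.39 and 1.75 ± 0.38) and Lyz2 (0.81 ± 0.17 and 0.75 ± 0.17), which are abundant in neutrophils or macrophages, were called in both, whereas Itgam (0.15 and 0.21), Clec4f (0.13 and 0.11) and Adgre1 (0.08 and -0.31), other markers of myeloid cells, were not called in either. Of the lymphocyte markers, Cd3g (-0.46 and 0.54), Ms4a1 (-0.46 and 0.01) and Cd4 (0.49 and 0.53) were not called in either kit. Cd3e (0.04 in Trad-KAPA) was not called either, and Cd79a (-0.25) was tested in Trad-KAPA only and not called. Ly6g, a neutrophil marker, was too low to be tested, with at most 0.144 CPM in a library, and no marker of this list was at 0 in all libraries of a kit. Of the 10 hepatocyte markers, 2 were lower in Trad-KAPA, and 1 was higher and 1 lower in 3’-LEXO. Beside them, 17.1% and 6.10% of all genes were called in either direction. Ass1 was lower in both kits (-0.71 ± 0.19 and -0.63 ± 0.15). Of 12 other liver cell markers tested, 1 was higher and 1 lower in each kit, beside the same 17.1% and 6.10% of all genes. Lyve1 was higher in both kits (1.77 ± 0.22 and 1.16 ± 0.28). Stab2, like Lyve1 a marker of sinusoidal endothelium, had -0.15 in Trad-KAPA and was called lower in 3’-LEXO (-0.60 ± 0.13, edgeR adjusted p = 0.0307), and Clec4g (-0.13 and -0.32) and Kdr (0.10 and -0.53) were not called. The part of these cells in the differences of Serpina1d and Serpina1e was not tested.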

How the data were processed

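Per the labels and the methods of the study, the authors aligned 50-base single-end reads to mm10 (GRCm38), using STAR 2.5.3a, and counted, for each gene, the exonic reads with 1 mapping position. The deposited values are raw counts in 12 libraries. The counting program, its strand setting and the annotation release are not given in the sources used here, and 0 columns of values were left out. The members and gene lists were chosen with earlier results of these data known. All 10 members are named. Of other lists, genes called in both kits are named, up to 4 a list, and proteases after their values were seen. The genes most like Serpina1d are not reported here.

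Counts were tested over the whole table with edgeR 4.0.16 (R 4.3.3, TMM, filterByExpr, quasi-likelihood test, Benjamini-Hochberg at 0.05) within each kit, and over 12 libraries for the kits and the interaction. All 10 members passed the filter in every comparison. The SE is the log2 fold change over the square root of F. CPM is the count scaled to a library total of 1000000. The mice are separate animals. The same number was taken as the same mouse in both kits. The labels give a kit, a diet and a number only, and the paper treats sample 1 of both kits as the same RNA. The share of unique windows was taken from GENCODE M21 transcripts of other genes, on either strand. Coding sequences were aligned with MAFFT 7.526. Scripts were tested on simulated data. Alternatives were DESeq2 1.42.0, its size factors, other filters, 10000000 reads per library, a replicate block, leaving out each mouse, and, chosen after seeing the data, iron-loaded mice 2 and 3 summed.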

Additional observations from a re-analysis of the deposited data

Results flagged for a closer look

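The diet difference of Serpina1e was larger in 3’-LEXO than in Trad-KAPA by 0.92 on the log2 scale when the mouse was fitted as a block (edgeR adjusted p = 0.0294), which is a difference between the kits under the same contrast. In the fit without the mouse it was 0.91 and did not pass. The part of reads shared between copies in it was not tested.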

How the results depend on the processing

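Across DESeq2, DESeq2 size factors, no filter or a filter of 1 CPM in 3 libraries, and counts drawn to 10000000 reads, 2 members were called for diet in each kit and 0 for the interaction, and 5 or 6 for the kits. Leaving out 1 mouse gave 1 to 4 called members for diet in Trad-KAPA (4 without iron-loaded mouse 1, 1 without any other mouse) and 0 to 2 in 3’-LEXO (0 without control mouse 1 or 3, 1 without control mouse 2 or iron-loaded mouse 2 or 3). With iron-loaded mice 2 and 3 summed, chosen after seeing the data, 1 member was called in each kit, Serpina1d in Trad-KAPA and Serpina1e in 3’-LEXO. Over all genes, the 811 called in 3’-LEXO became 1313 with DESeq2, 2040 with no filter, 436 with the number of the mouse as a block and 445 with the sum, and the 2255 of Trad-KAPA became 1147 with the sum. Without 1 mouse the counts were 199 to 871 and 841 to 2803.

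Direction changed only among differences that did not pass the test. With iron-loaded mice 2 and 3 summed, the log2 fold changes in Trad-KAPA were -0.0025 for Serpina1a and -0.0212 for Serpina1b, and in 3’-LEXO -0.0326 for Serpina3c and -0.0483 for the Serpina1 sum. Leaving out 1 mouse gave, in Trad-KAPA, -0.007 to 0.18 for Serpina1a, -0.0307 to 0.15 for Serpina1b, -0.47 to 0.056 for Serpina3k, -0.0841 to 1.60 for Serpina3c and -0.32 to 0.12 for the Serpina3 sum. In 3’-LEXO it gave -0.13 to 0.10 for Serpina1b, -0.39 to 0.0126 for Serpina1c, -0.38 to 0.27 for Serpina3c and -0.0549 to 0.20 for the Serpina1 sum. The cause of these changes was not tested.

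With the mouse as a replicate block, 1 member was called for the interaction and 8 for the kits. Within a kit the same numbers do not pair mice of different diets (correlations of -0.168 to 0.100 between their deviations), and a block on them left 2 members called in each kit and gave -0.0017 for Serpina3c in 3’-LEXO. Over all results and alternatives, 454 of 532 values were judged the same and 78 were not. Fold changes were judged by their direction, their side of the threshold and their error. Counts of called members were taken as moved beyond a change of 1.5-fold. The 532 also hold shares of unique windows, which have no direction or error. Shares of unique windows depended on the mismatch allowed, and were searched in annotated transcripts only, since no genome was used here. The 4 to 25 counts of Serpina3c per Trad-KAPA library limit its precision.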
